A study of Mus musculus with 6 samples.

Results

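The library described here was made from tissue punches of the mouse substantia nigra pars compacta (SNpc) after injection of the neurotoxin 6-hydroxydopamine (6-OHDA). It is 1 of 6 samples of the series, identified by its label. The study sequenced total RNA from the SNpc to follow the Engrailed homeoproteins in dopaminergic neurons, and each of its 6 groups holds 1 sample. The 6-OHDA punch came from wild type mice aged 8 weeks, and the labels' protocol gives saline (NaCl 0.9%) as the vehicle of the injection that followed 6-OHDA after 30 min. The 6-OHDA En2 punch came from wild type mice of the same age that received 2 µl of bacterial recombinant En2 protein (300 ng at 4 µM) together with colominic acid (3 µg), also 30 min after the toxin. Both were 1 mm punches taken from frozen coronal slices 2 mm thick. The other 4 libraries, from wild type and En1+/- mice at 6 weeks and from the infused and opposite sides of En2-infused mice at 8 weeks, were laser-captured neurons stained for tyrosine hydroxylase. The sources used here do not give the number of animals behind each sample, the side punched or the time from injection to collection. The series as used here has no unlesioned punch, so every value below is a level after 6-OHDA and none is an effect of 6-OHDA.

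The SNpc is the midbrain nucleus whose dopaminergic neurons project to the dorsal striatum and are lost in Parkinson disease. These neurons make dopamine from tyrosine with tyrosine hydroxylase and aromatic amino acid decarboxylase, load it into vesicles with the vesicular monoamine transporter, and take it back up through the dopamine transporter. 6-OHDA is a dopamine analogue that enters catecholaminergic cells through those plasma membrane transporters and oxidises inside them.

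The 6-OHDA punch held 15927206 counts over 37991 genes, against 19044672 counts in the 6-OHDA En2 punch. Of 39095930 alignments processed for the 6-OHDA punch, 40.7% were counted in a gene, 42.6% were not aligned, 16.4% lay in no annotated feature and 0.307% were ambiguous. Levels are given as CPM, reads scaled to a total of 1000000 gene counts, or, where levels are compared between genes, as TPM, which divides the reads of a gene by its exon length before scaling to the same total. A single read was worth 0.0628 CPM, and the limit set for a gene with 0 reads was 3 reads, or 0.188 CPM, a one-sided 95% limit. Intervals in parentheses are exact two-sided 95% Poisson counting intervals. They cover counting error only, because reads amplified by PCR are not independent molecules, and with 1 sample per group there is no replicate spread and no test of any difference. Reads were found for 21171 genes, and 16365 genes had at least 10. In all, 15540 genes (40.9%) reached 1 CPM, against 15552 genes in the 6-OHDA En2 punch, with 15161 genes reaching it in both. Of 20214 protein-coding genes, 16178 had reads and 13516 reached 1 CPM. Detection was thus common among coding genes, and counts of detected members in the lists below are to be read beside these shares. The counts were spread widely: the 1077 genes with the most reads held 50% of them, and the first 10 of these held 6.69%. Protein-coding genes took 91.2% of the counts, and the median protein-coding gene stood at 7.54 TPM.

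The most-read genes of the 6-OHDA punch were myelin, synaptic and glial genes, led by a pseudogene. Behind the pseudogene Gm10925, with 309956 reads (19461 CPM, 19392 to 19529), came Mbp, which encodes myelin basic protein, with 199536 reads (12528 CPM). The imprinted long noncoding RNA Meg3 had 4805 CPM, the myelin gene Mobp 4783 CPM and the fatty acid desaturase gene Scd2 4572 CPM. Of the pan-neuronal list Snap25, which encodes a SNARE protein of synaptic vesicle fusion, had the most reads (2687 CPM). Genes of axonal transport and the cytoskeleton were also among the 30 with the most reads, such as Map1a at 2026 CPM, Kif5a at 1984 CPM, Map1b at 1850 CPM and Kif1a at 1558 CPM. The astrocytic genes Glul (glutamine synthetase, 2071 CPM) and Slc1a2 (a glutamate transporter, 2042 CPM) were also among the leading 30. Of these 30 genes, 28 were among the leading 30 of the 6-OHDA En2 punch.

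**Figure D1:**
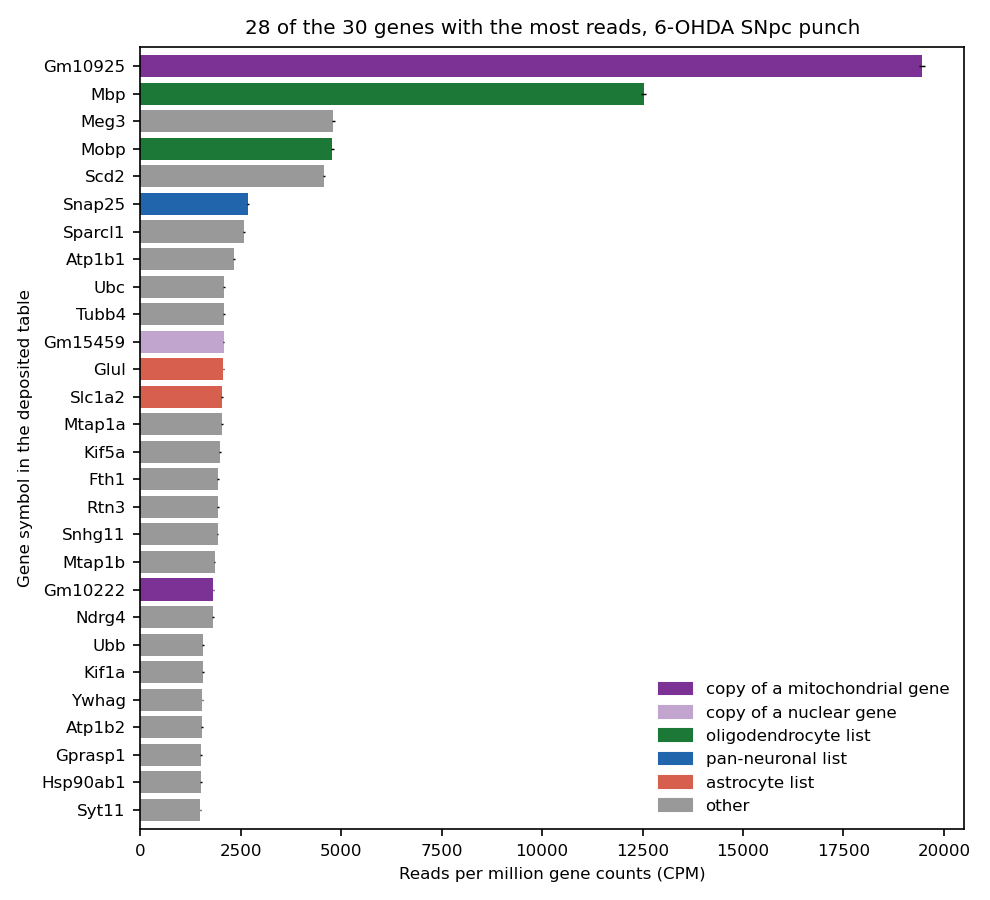
Level in CPM (horizontal axis) of 28 of the 30 genes with the most reads in the 6-OHDA punch, 1 bar per gene, coloured by list or by the closest match of the sequence; error bars are exact 95% counting intervals. Gm10925 leads at 19461 CPM, ahead of the myelin gene Mbp at 12528 CPM.

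By length, Mbp was among the highest protein-coding genes with 5318 TPM (5295 to 5342). The ubiquitin gene Ubb had 3356 TPM and the tubulin gene Tubb4 (now Tubb4a) 3351 TPM. Sparcl1, which encodes a secreted matricellular protein, had 3157 TPM, Scd2 3009 TPM and Atp1b1, a subunit gene of the sodium pump, 2724 TPM.

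Gm10925 carried the highest count while the mitochondrial genes that it matches were listed at 0. All 37 mitochondrially encoded genes in the table had 0 reads in the 6-OHDA punch and also in the 6-OHDA En2 punch. In the captured libraries these genes took 75.1% of the counts in wild type, 59.1% in En1+/-, 72.4% on the side opposite the infusion and 63.2% on the infused side. The mitochondrial gene mt-Atp6 was nearly uncounted there too, with 6 reads in wild type, 4 in En1+/-, 3 on the opposite side and 5 on the infused side. The annotated transcript of Gm10925 (678 bases, chromosome 1) was identical over its whole length to mt-Atp6, which encodes a subunit of the mitochondrial ATP synthase. That of Gm10222 (294 bases, chromosome 1; 28973 reads) was identical to mt-Nd4l, which encodes a subunit of complex I. Gm13340 (chromosome 2; 6187 reads) matched mt-Co1, a cytochrome c oxidase subunit gene, at 97.6% of 1545 bases, and Gm13341 (chromosome 2; 9180 reads) matched the cytochrome c oxidase gene mt-Co2 at 95.9% of 684 aligned positions. These 4 nuclear copies together held 354296 reads, or 2.22% of all counts.

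The first 150 bases of Gm10925 and of mt-Atp6, and likewise of Gm10222 and mt-Nd4l, are shown because no letter tells the nuclear copy from the mitochondrial gene. A stretch of 150 bases of Gm13340 and mt-Co1 (bases 454 to 603 of both) is shown for contrast, with the 7 differing letters in capitals. Sequences are transcripts of GENCODE M21, written 5′ to 3′ on the sense strand.
Gm10925: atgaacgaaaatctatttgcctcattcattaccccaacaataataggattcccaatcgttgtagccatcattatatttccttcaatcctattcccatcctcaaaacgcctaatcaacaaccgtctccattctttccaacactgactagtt
mt-Atp6: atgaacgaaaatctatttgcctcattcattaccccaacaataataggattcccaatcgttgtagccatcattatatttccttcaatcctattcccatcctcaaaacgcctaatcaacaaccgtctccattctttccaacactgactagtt
Gm10222: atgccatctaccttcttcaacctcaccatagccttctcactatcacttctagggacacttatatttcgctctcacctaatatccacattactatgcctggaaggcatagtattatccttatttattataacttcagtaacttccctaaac
mt-Nd4l: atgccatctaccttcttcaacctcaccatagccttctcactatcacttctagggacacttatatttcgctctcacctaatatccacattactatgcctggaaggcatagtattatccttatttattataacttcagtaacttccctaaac
Gm13340: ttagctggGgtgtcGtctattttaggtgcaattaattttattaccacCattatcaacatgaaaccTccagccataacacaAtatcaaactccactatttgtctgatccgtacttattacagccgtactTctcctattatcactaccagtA
mt-Co1: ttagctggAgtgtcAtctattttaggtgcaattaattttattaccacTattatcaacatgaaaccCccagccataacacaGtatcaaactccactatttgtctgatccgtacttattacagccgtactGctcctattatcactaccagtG

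Where the reads of such pairs belong cannot be read from the counts, so a count of 0 for a mitochondrial gene is no measurement of its RNA here. The same held on a smaller scale for processed pseudogenes of nuclear genes. Of the 60 pseudogenes with the most reads (at least 2675 each), 56 matched a nuclear coding gene best, at a median identity of 99.7% and at least 90.5%. They held 334678 reads (2.10% of counts), and 51 of the 56 had more reads per kilobase than the gene they match. Length was that of the transcript for a copy and of all exons for the gene, and the longer gene length lowers the gene's value. In reads, some of these copies lay below their gene, such as Gm6977 with 5261 reads, against 30892 reads for Fth1. Gm14456 (now Tpt1-ps3) had 13095 reads, against 761 reads for Tpt1, the gene of translationally controlled tumour protein, to which its 519 bases are identical. Gm15459 had 32986 reads and Gm8355 14962 reads, against 7731 reads for Hspa8, which encodes a constitutive HSP70 chaperone. Gm13394 had 11754 reads, against 3659 reads for the glycolytic gene Gapdh. Levels of these source genes, and of Hsp90aa1, Ubb, Eef1a1, Fth1, Glul, Actg1 and Pgk1, which also had copies among the 60, are uncertain by the reads the copies hold. A stretch of 150 bases of Gm15459 (chromosome 5) and Hspa8 (chromosome 9) is shown with its 2 differing letters in capitals.
Gm15459: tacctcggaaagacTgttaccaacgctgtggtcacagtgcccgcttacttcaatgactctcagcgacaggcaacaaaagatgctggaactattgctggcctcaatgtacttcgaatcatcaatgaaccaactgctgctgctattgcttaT
Hspa8: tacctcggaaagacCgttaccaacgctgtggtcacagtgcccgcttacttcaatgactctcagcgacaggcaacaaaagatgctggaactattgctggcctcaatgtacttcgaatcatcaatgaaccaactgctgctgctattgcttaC

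All 24 genes of the dopaminergic list had reads in the 6-OHDA punch, and 22 had at least 10. Over all 37991 genes, 16365 had at least 10 reads. Together the 24 genes held 11467 reads, or 720 CPM (707 to 733), against 902 CPM in the 6-OHDA En2 punch. Of the 24 genes, 20 had a lower TPM in the 6-OHDA punch than in the 6-OHDA En2 punch and 4 a higher one. The share of all genes with a lower TPM was not counted, so this count is not shown to be particular to the list. In bulk tissue, fewer cells of a type and less RNA per cell cannot be told apart, and how much of a punch is SNpc was not tested.

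Slc6a3 (ENSMUSG00000021609; GRCm38 chromosome 13, 73536747 to 73578672), which encodes the dopamine transporter, had 1820 reads in the 6-OHDA punch and 3382 in the 6-OHDA En2 punch. Its level was 119 TPM (113 to 124) in the 6-OHDA punch, against 184 TPM in the 6-OHDA En2 punch. Th (ENSMUSG00000000214; chromosome 7, 142892752 to 142931128), which encodes tyrosine hydroxylase, the rate-limiting enzyme of dopamine synthesis, had 519 reads in the 6-OHDA punch and 880 in the 6-OHDA En2 punch. It stood at 49.6 TPM (45.4 to 54.0) in the 6-OHDA punch and at 70.1 TPM in the 6-OHDA En2 punch. Both marker genes of the dopaminergic neurons were thus well above the median coding gene and lower in the 6-OHDA punch than in the 6-OHDA En2 punch, a difference between 2 single libraries.

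By level per length the list was led by Sncg, the gamma-synuclein gene, at 213 TPM (199 to 228), followed by Slc6a3. Next were Aldh1a1, an aldehyde dehydrogenase of ventral-tier nigral neurons, at 90.4 TPM and Slc18a2, the vesicular monoamine transporter gene, at 60.5 TPM. The receptor tyrosine kinase gene Ret stood at 56.3 TPM, and its interval overlapped those of both Slc18a2 and Th. The autoreceptor gene Drd2 had 39.4 TPM and Ddc, the decarboxylase gene, 34.5 TPM, again with overlapping intervals. The nicotinic receptor gene Chrna6 had 19.7 TPM, the neurotensin receptor gene Ntsr1 14.1 TPM and Cadps2, a vesicle priming gene, 10.3 TPM. Between 1 and 10 TPM lay the nicotinic receptor gene Chrnb3 (7.02 TPM), Gch1, the first enzyme of tetrahydrobiopterin synthesis (3.61 TPM), the potassium channel gene Kcnj6 (2.78 TPM) and Aldh1a7 (2.08 TPM). The guanylate cyclase gene Gucy2c had 6 reads (0.342 TPM). Of the 23 neighbouring pairs in this order, intervals overlapped in 15 and stood apart in 8.

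**Figure D2:**
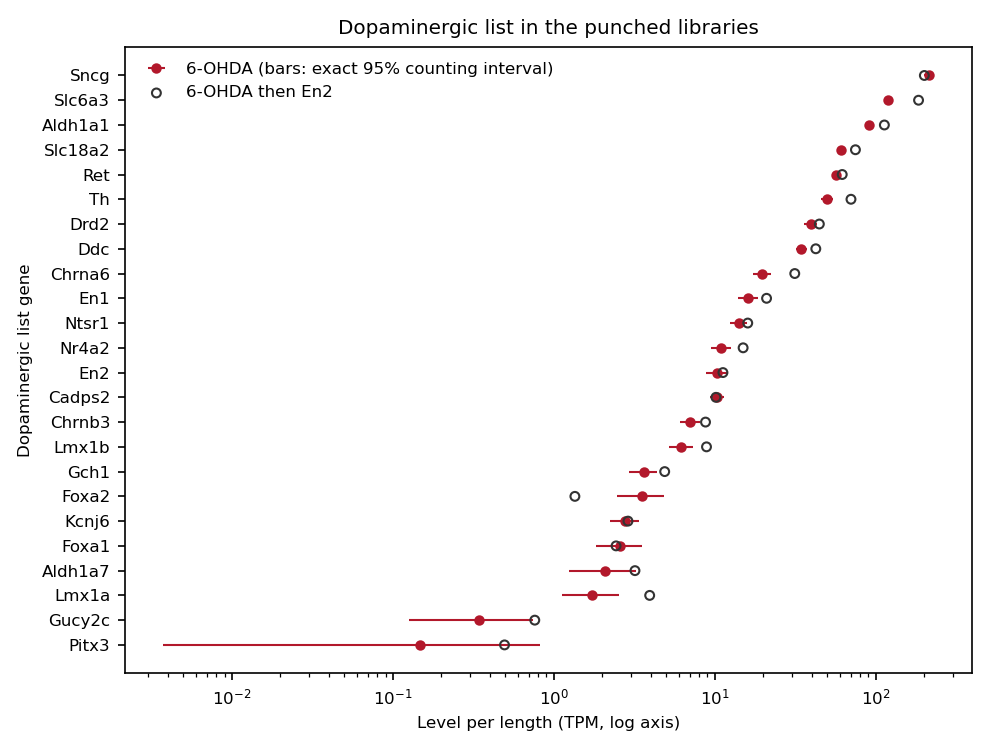
Level per length (TPM, log axis) of the 24 dopaminergic list genes, with filled points and exact 95% counting intervals for the 6-OHDA punch and open points for the 6-OHDA En2 punch. Slc6a3 lies at 119 TPM in the 6-OHDA punch and 184 TPM in the 6-OHDA En2 punch, and Pitx3, with 1 read and 4 reads, has the widest interval.

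The ratio of Slc6a3 to Th per length was 2.40 in the 6-OHDA punch (2.17 to 2.65, from the Clopper-Pearson interval of their shared reads), against 2.63 (2.44 to 2.83) in the 6-OHDA En2 punch. In the captured libraries, which count transcripts and not genes, the same ratio was 1.68 in wild type, 1.89 in En1+/-, 2.24 on the side opposite the infusion and 2.17 on the infused side. The intervals of both punches overlapped. The ratio in the 6-OHDA punch lay above the intervals of the 4 captured libraries. Its own interval overlapped those of the opposite side (2.12 to 2.37) and the infused side (2.06 to 2.27). Moreover, the exon length of Th differs between the gene model (2364 bases) and the counted transcript (1829 bases). On raw reads the ratio was 3.51 in the 6-OHDA punch, within the captured range of 3.17 to 4.23.

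Set against Slc6a3 within the same library, Gad1, which encodes a GABA-synthesising enzyme, stood far higher in the punches than in captured tissue. It had 2.62 times the level of Slc6a3 per length in the 6-OHDA punch and 1.83 times in the 6-OHDA En2 punch, against 0.0938 to 0.158 times in captured libraries. Of the 23 other dopaminergic list genes, the ratio to Slc6a3 in the 6-OHDA punch lay within the range of the 4 captured libraries for 9, above it for 10 and below it for 4. Th, below the range, had 0.417 times the level of Slc6a3 in the 6-OHDA punch and 0.380 times in the 6-OHDA En2 punch, against 0.447 to 0.596 times in captured libraries. En1, above it, had 0.136 times in the 6-OHDA punch and 0.114 times in the 6-OHDA En2 punch, against 0.00706 to 0.0235 times in captured libraries. En2, Sncg, Ret, Drd2, Ntsr1, Cadps2, Lmx1b, Lmx1a and Foxa2 were above the range too, while Slc18a2, Kcnj6 and Gucy2c were below it. Length was that of all exons of a gene in the punches and of its most-read transcript in captured libraries. It was 7633 and 3097 bases for Kcnj6, 5225 and 3785 bases for Slc18a2, and 2364 and 1829 bases for Th. The places of Kcnj6, Slc18a2 and Th below the range thus depend on the length used. Among genes within the range, the lengths were 4937 and 2053 bases for Aldh1a1, 4461 and 1954 bases for Ddc, and 6251 and 2775 bases for Gch1. The split into 9, 10 and 4 genes therefore depends on the length too, and it was not counted with equal lengths. Lesion, collection and counting method cannot be told apart in these values.

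The remaining genes of dopamine metabolism differed widely in level. Qdpr, which recycles the cofactor tetrahydrobiopterin and is also made outside catecholaminergic cells, had 811 TPM, and its partner in recycling Pcbd1 had 86.5 TPM. Of the cofactor's synthesis genes, Spr stood at 20.6 TPM, Pts at 16.3 TPM and Gch1 at 3.61 TPM. The degradation genes Maoa (53.2 TPM), Maob (26.5 TPM) and Aldh2 (24.4 TPM) lay below Slc6a3. Among dopamine receptor genes Drd2 was followed by Drd5 at 5.44 TPM and Drd1 at 2.05 TPM, while Drd4 had 4 reads and Drd3 had 1 read.

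Transcription factor genes of midbrain dopaminergic neurons were low but mostly measurable. En1 and En2, the Engrailed genes that the study is about, are homeobox genes that these neurons keep expressing in the adult. En1 (ENSMUSG00000058665; chromosome 1, 120602418 to 120607992) had 188 reads in the 6-OHDA punch and 292 in the 6-OHDA En2 punch, a level of 16.2 TPM (13.9 to 18.7) against 20.96 TPM. En2 (ENSMUSG00000039095; chromosome 5, 28165694 to 28172166) had 162 reads in the 6-OHDA punch and 211 in the 6-OHDA En2 punch, a level of 10.3 TPM (8.80 to 12.1) against 11.2 TPM. Nr4a2, the nuclear receptor gene needed to form these neurons, had 196 reads (10.9 TPM), overlapping En2 in its interval. Lmx1b had 134 reads (6.20 TPM) and its paralog Lmx1a 26 reads (1.73 TPM). The forkhead genes Foxa2 (37 reads, 3.52 TPM) and Foxa1 (38 reads, 2.58 TPM) did not differ beyond their intervals. In the 6-OHDA En2 punch Foxa2 had 17 reads and Foxa1 43.

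Pitx3 (chromosome 19, 46135685 to 46148326), a homeobox gene restricted in the brain to midbrain dopaminergic neurons, had 1 read in the 6-OHDA punch and 4 in the 6-OHDA En2 punch. Its 0.148 TPM had an interval of 0.00375 to 0.824 TPM, so its level was not measurable at this depth. It was low in captured neurons too, with 3 reads in wild type, 4 in En1+/-, 5 on the side opposite the infusion and 15 on the infused side, although Slc6a3 had 4308 to 8766 reads there.

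The other factors of the list are shared with other neurons. The TALE homeobox gene Pbx3 (37.8 TPM) led it, and the neuronal repressor gene Myt1l (28.0 TPM) stood above Ebf3 (17.3 TPM), Nr2f1 (17.1 TPM), Nr2f2 (10.8 TPM) and Satb1 (10.3 TPM). Below En2 stood Zfhx3 at 5.68 TPM and Sox6, a factor of SNpc neurons, at 4.14 TPM. Otx2, which marks ventral tegmental neurons in the adult, had 49 reads (2.62 TPM), with Zfp503 at 3.11 TPM, Otx1 at 2.00 TPM and Bnc2 at 1.30 TPM. The proneural gene Neurog2 (14 reads) and the early patterning gene Msx1 (10 reads) were at the lower end.

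To see how low a count can be read, families with no known role in this tissue were counted beside these factors. Of 1154 genes of olfactory, vomeronasal and taste receptors, keratin-associated proteins and beta-defensins, 55 (4.77%) had any read, 7 had at least 10, and their 99th percentile was 4.47 reads. Olfr287 was the exception with 201 reads. Of 38 Hox genes, which pattern the hindbrain and spinal cord, 7 had reads and 2 had at least 10. The interval of 23 of the 24 factors, in reads, lay above that 99th percentile, Pitx3 being the exception.

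**Figure D3:**
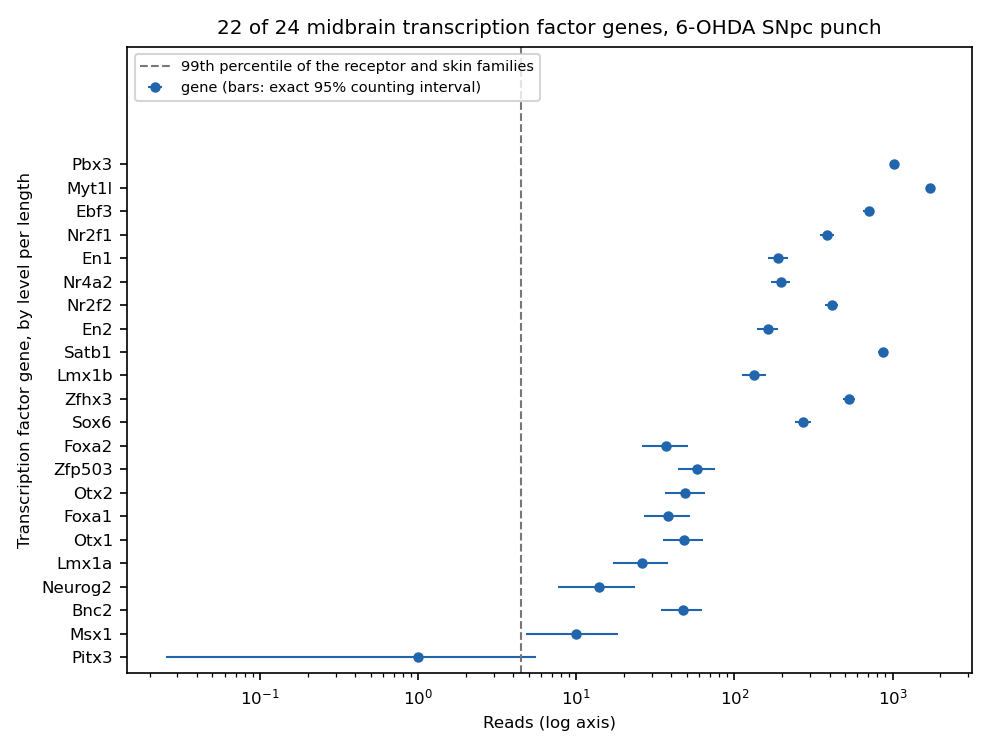
Reads (log axis) of 22 of the 24 midbrain transcription factor genes in the 6-OHDA punch, ordered by level per length, with exact 95% counting intervals. The dashed line is the 99th percentile of receptor and skin gene families (4.47 reads); Pitx3, with 1 read, is the plotted factor whose interval reaches below the dashed line.

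Across 19 cell type lists the neuronal, astrocytic and oligodendrocytic genes stood highest. The median member of the pan-neuronal list was at 734 TPM, of the astrocyte list at 241 TPM, of the oligodendrocyte list at 236 TPM and of the GABAergic list at 95.4 TPM. The dopaminergic list came 10th with a median of 10.6 TPM, against 7.54 TPM over all protein-coding genes. Every member of the list had reads, and its median lay below the 14.2 TPM of protein-coding genes with reads. By summed reads oligodendrocyte genes took 33605 CPM, pan-neuronal genes 14468 CPM and astrocyte genes 10698 CPM. In the 6-OHDA En2 punch these sums were 26619, 13585 and 12175 CPM. In the 6-OHDA punch the myelin genes Mal (1527 TPM), Cnp (1263 TPM) and Cldn11 (1049 TPM) stood below Mbp and Mobp. In the pan-neuronal list the neurofilament genes Nefl (1127 TPM) and Nefh (788 TPM) stood above the list's median and Nefm (698 TPM) below it.

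**Figure D4:**
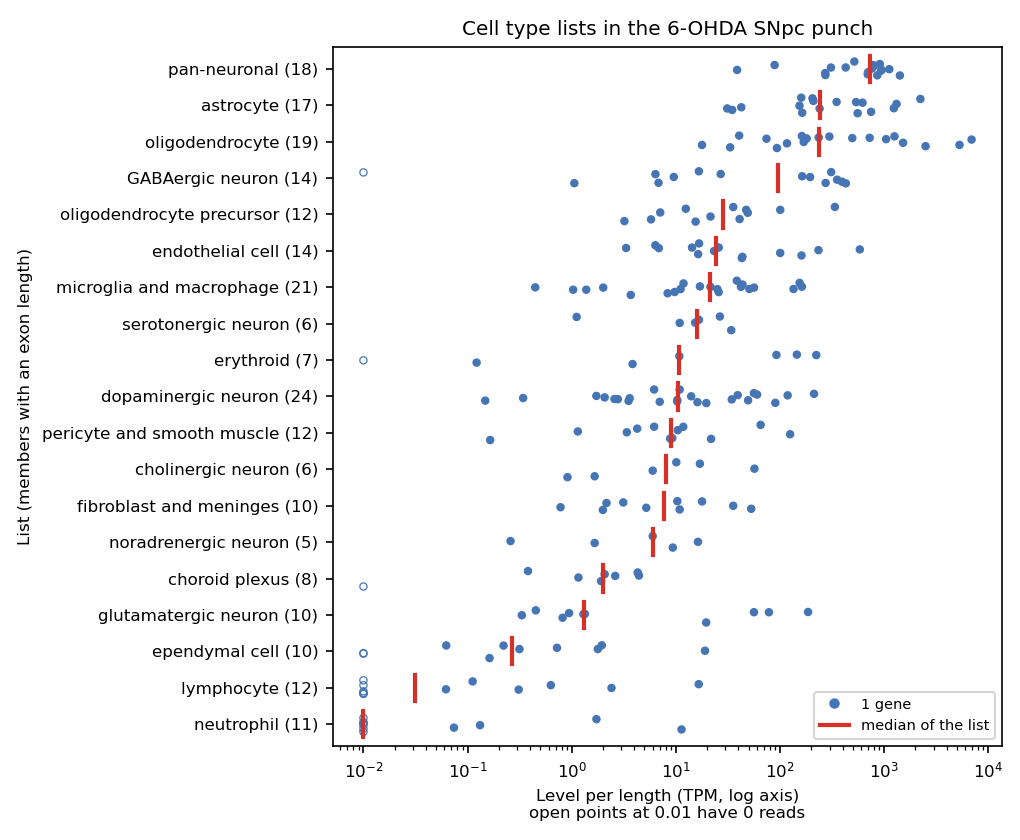
Level per length (TPM, log axis) of the members of 19 cell type lists in the 6-OHDA punch, 1 point per gene, with the median of each list as a vertical bar and open points at 0.01 for genes with 0 reads. Lists run by median, with pan-neuronal genes at 734 TPM at the top, the dopaminergic list 10th at 10.6 TPM and the neutrophil list at 0 at the bottom.

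Among neurons that are not dopaminergic, GABAergic genes led, as Gad2 had 395 TPM, Gad1 311 TPM and the vesicular GABA transporter gene Slc32a1 195 TPM. Somatostatin (Sst, 275 TPM) and parvalbumin (Pvalb, 164 TPM) were present, and Tal1, Gata3 and Gata2, factors of midbrain GABAergic neurons, had 27.0, 16.7 and 9.58 TPM. Of the vesicular glutamate transporters, the subcortical Slc17a6 had 187 TPM, while the mainly cortical Slc17a7 had 1.30 TPM and Slc17a8 had 1.34 TPM. The cholinergic genes Slc5a7 (57.0 TPM) and Chat (10.1 TPM) were measured too. All 34 neurotransmitter receptor genes listed had at least 10 reads, against 16365 of all 37991 genes. Among the 34 were the glycine receptor gene Glrb at 331 TPM, the GABA-A subunit gene Gabrb2 at 275 TPM and, lowest, the NMDA receptor gene Grin2b at 0.264 TPM.

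Genes of other monoamine neurons were present in the 6-OHDA punch, while Dbh, Slc6a2, Tph2 and Slc6a4 had 0 reads in each of the 4 captured libraries. Dbh, which makes noradrenaline from dopamine, had 195 reads in the 6-OHDA punch (16.4 TPM) and 400 in the 6-OHDA En2 punch (28.0 TPM). The noradrenaline transporter gene Slc6a2 had 261 reads (9.37 TPM) in the 6-OHDA punch and 14.9 TPM in the 6-OHDA En2 punch. Tph2, which starts serotonin synthesis in the brain, had 435 reads (34.1 TPM) in the 6-OHDA punch and 22.8 TPM in the 6-OHDA En2 punch. The serotonin transporter gene Slc6a4 had 219 reads (10.9 TPM) in the 6-OHDA punch and 7.23 TPM in the 6-OHDA En2 punch. All 5 noradrenergic list genes had reads, 35.9 CPM in all in the 6-OHDA punch and 62.0 CPM in the 6-OHDA En2 punch, though Hoxb2 had only 4 reads in the former. All 6 serotonergic list genes had reads, 99.8 CPM in the 6-OHDA punch and 83.4 CPM in the 6-OHDA En2 punch. Of that list's 1589 reads in the 6-OHDA punch, Maob held 328 and Gata3 294, genes that other lists hold too, and Fev held 8. The part of tissue outside the SNpc in these reads was not tested.

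Markers of neighbouring and distant regions were counted too. Calb2, the calretinin gene, had 175 TPM, and the thalamic factor gene Tcf7l2 16.5 TPM. Calb2 is also in the list for subdivisions of the substantia nigra and ventral tegmental area, so its level does not mark tissue outside them. Genes of red nucleus and tectum such as Pou4f1 (2.95 TPM) and Pax7 (3.47 TPM) were low. Of 16 hypothalamic genes 14 had reads, with Crh highest at 23.3 TPM, and the vasopressin gene Avp had 0 reads. Of 17 forebrain genes the cortical and striatal factor genes Emx1 and Dlx5 had 0 reads, while Ppp1r1b, the DARPP-32 gene, had 44.7 TPM. Of 18 hindbrain and cerebellar genes 8 had reads, with Zic2 highest at 5.56 TPM and the cerebellar granule cell genes Gabra6 and Atoh1 at 0 reads. The choroid plexus gene Ttr had 2 reads.

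Ion channel genes of pacemaking were led by Hcn2 (220 TPM), a subunit of the hyperpolarisation-activated current, and by the potassium channel gene Kcnc1 (141 TPM) and the sodium channel gene Scn1a (140 TPM). Lower in the same list stood Kcnd3 at 61.3 TPM, Nalcn at 27.2 TPM, the L-type calcium channel gene Cacna1d at 7.19 TPM and the SK channel gene Kcnn3 at 0.756 TPM. Among trophic genes the GDNF receptor genes Gfra1 (70.7 TPM) and Ret (56.3 TPM) stood well above their ligand gene Gdnf, which had 15 reads (0.922 TPM), and Nrtn, the neurturin gene, which had 0. Bdnf had 14.1 TPM and its receptor gene Ntrk2 155 TPM. Of the Parkinson disease genes, Pink1 (506 TPM), Uchl1 (429 TPM) and Mapt (350 TPM) were highest. Park7 had 50.4 TPM and Lrrk2 2.52 TPM.

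Nuclear genes of respiratory complex I carried reads, unlike the mitochondrial ones. All 37 nuclear complex I subunit genes listed had at least 10 reads, and their median was 60.3 TPM in the 6-OHDA punch and 59.6 TPM in the 6-OHDA En2 punch. They ran from Ndufb9 at 309 TPM to Ndufab1 at 15.3 TPM. Ndufs1, which encodes the largest subunit, had 36.1 TPM and Ndufs3 46.8 TPM.

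Stress response genes were detected throughout. All 29 antioxidant and metal-binding genes had at least 10 reads, with a median of 109 TPM. Fth1, the ferritin heavy chain gene, had 2010 TPM, a level to which its copy Gm6977 adds doubt. Srxn1, which encodes sulfiredoxin, had 445 TPM and Hmox1, the haem oxygenase gene, 304 TPM (292 to 316), against 536 and 227 TPM in the 6-OHDA En2 punch. The metallothionein gene Mt1 had 268 TPM in the 6-OHDA punch and 695 TPM in the 6-OHDA En2 punch, while Sod1 had 26.7 TPM in the 6-OHDA punch and Gss, of glutathione synthesis, 8.36 TPM. Of 24 apoptosis and p53 response genes, Mcl1 (210 TPM), the cell cycle inhibitor gene Cdkn1a (184 TPM), Bcl2l1 (151 TPM) and Phlda3 (123 TPM) led. The death receptor gene Eda2r, with 12 reads, and Bbc3, with 22, were lowest. Chaperone and unfolded protein genes had a median of 71.7 TPM, with Cryab at 524 TPM and Hspa5 at 318 TPM, whereas the inducible Hspa1a had 2.74 TPM and Trib3 1.38 TPM. The immediate early genes Fos (96.2 TPM) and Egr1 (83.3 TPM) led their list, whose median was 14.4 TPM in the 6-OHDA punch and 35.5 TPM in the 6-OHDA En2 punch.

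Genes of resident glia were mostly well measured in the 6-OHDA punch, and most genes of neutrophils and lymphocytes were at or near 0. All 21 microglia and macrophage genes had reads, with a median of 21.5 TPM in the 6-OHDA punch and 6.94 TPM in the 6-OHDA En2 punch. The microglial marker gene Aif1 was lowest in the 6-OHDA punch with only 3 reads (0.447 TPM). Mrc1, Lyve1 and Cd163 were low too, with 39, 26 and 25 reads. The complement gene C1qa had 163 TPM, and the homeostatic microglial genes Cx3cr1 (43.8 TPM), P2ry12 (21.5 TPM) and Tmem119 (17.1 TPM) were present, against 6.94, 4.96 and 1.95 TPM in the 6-OHDA En2 punch. Gfap, the intermediate filament gene of astrocytes, had 540 TPM (529 to 550) in the 6-OHDA punch and 898 TPM in the 6-OHDA En2 punch. The cytokine, complement and interferon list had a median of 4.71 TPM and 202 CPM in all in the 6-OHDA punch, against 57.6 TPM and 3223 CPM in the 6-OHDA En2 punch. Its highest members in the 6-OHDA punch were the chemokine genes Ccl2 (56.7 TPM) and Cxcl10 (39.99 TPM) and the interferon-induced Ifit3 (39.5 TPM), while Il10, Ifng and Ifnb1 had 0 reads. Neutrophil genes had a median of 0, with 7 of 11 at 0 reads, S100a8 among them, and 132 of the list's 139 reads were those of Lcn2, which astrocytes also make. Of 12 lymphocyte genes 6 had 0 reads, including Cd3e.

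**Figure D5:**
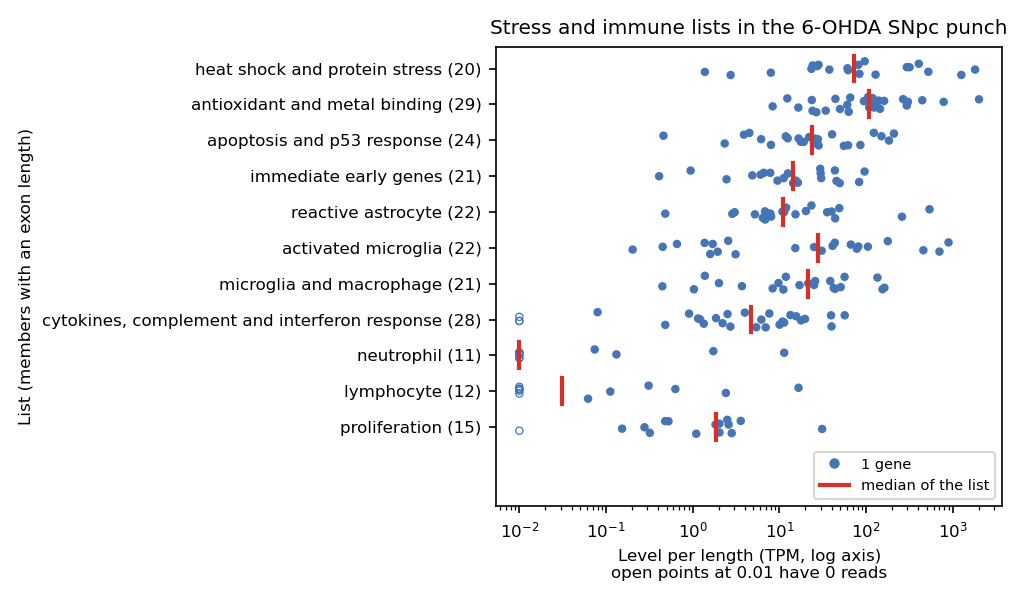
Level per length (TPM, log axis) of stress, glial and immune list members in the 6-OHDA punch, 1 point per gene, with medians as vertical bars and open points at 0.01 for genes with 0 reads. Antioxidant genes have a median of 109 TPM, cytokine, complement and interferon genes one of 4.71 TPM, and 7 of 11 neutrophil genes have 0 reads.

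Blood, vessel and dividing cell genes were also counted. The endothelial genes Slc2a1 (235 TPM) and Cldn5 (43.7 TPM) and the pericyte gene Rgs5 (126 TPM) were present, and globin genes reached 224 TPM for Hbb-bs, whose reads cannot be told apart from those of close paralogs. Of 15 proliferation genes Pcna stood at 31.1 TPM and the others at or below 3.58 TPM, with Mki67 at 1.10 TPM. The Y-linked genes Ddx3y (2026 reads), Eif2s3y (567), Uty (361) and Kdm5d (331) were all present, and Xist, the X inactivation RNA, had 34 reads in the 6-OHDA punch and 4 in the 6-OHDA En2 punch. The X-linked partners Ddx3x, Eif2s3x, Kdm5c and Kdm6a had 6127, 2484, 592 and 371 reads. Xist was at 0 reads in all 4 captured libraries.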

How the data were processed

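Total RNA from each sample was made into Illumina libraries, per the labels' protocols. For the punches the authors deposited counts of reads per gene; for the captured libraries the authors deposited counts per transcript. Per the submitters' processing notes, the tools were HTSeq, Bowtie and DESeq 1.8.3 and the build was mm10, with no roles stated; a column header of the punched comparison table names mm9. The sources used here do not state whether counting used strand. For the captured libraries of infused mice, the sample titles name En2, while the names given to the deposited counts name En1. In the 6-OHDA file 1 count stood 1 column to the right and was read from there (3 in the other punch), and 6 columns of per-library means were not used.

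Symbols came from the deposited comparison table by gene identifier. Exon lengths, types and GRCm38 positions came from GENCODE M21 for 32919 identifiers, which held 96.7% of the counts; TPM uses the union of exons. Transcripts of the 60 most-read pseudogenes were compared with coding and mitochondrial transcripts by BLAST 2.17.0 (e-value 1e-10), retired identifiers by symbol. In captured libraries a gene is its most-read transcript. Exact Poisson and Clopper-Pearson intervals (95%) were computed with SciPy 1.17.1. The Poisson intervals and the levels per length were checked on counts simulated as Poisson draws, which checks the computation and not the fit to real reads. The Clopper-Pearson intervals were not checked on simulated data. Nothing was tested for significance.

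The 45 gene lists (723 symbols, 718 found) and the library were chosen with earlier results of these data known. The naming rule takes every gene of the dopaminergic, midbrain transcription factor, dopamine handling and sex chromosome lists, the extremes of other lists and the leading genes. Genes outside the rule (such as Cacna1d and P2ry12) were named for their known roles after their values were seen. Not every gene the rule takes is reported here or named in the figures.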

Additional observations from a re-analysis of the deposited data

How the results depend on the processing

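The dopaminergic list level of 720 CPM was 596 CPM without its most-read member Aldh1a1, 671 CPM without the transcription factors, and 789 CPM over the total of protein-coding genes, a total chosen after seeing the data. The Slc6a3 to Th ratio of 2.40 was 1.98 with the longest transcript as length and 3.51 with no length. The dopaminergic list, 10th of 19 by median, was 9th with longest transcripts and 11th without genes of another cell type list; by the mean, or without its highest and lowest member, it stayed 10th. The pan-neuronal, astrocyte, oligodendrocyte and GABAergic lists were the first 4 under each of these 4 settings. Their order changed by the mean, with oligodendrocyte genes 1st (1119 TPM), pan-neuronal genes 2nd (661 TPM), astrocyte genes 3rd (522 TPM) and GABAergic genes 4th (157 TPM), and not under the other 3. By the mean, 7 of the 19 lists moved outside the quartiles of their members, and the glutamatergic list moved most, by 7 places. The number of genes at 1 CPM was 15540 also without mitochondrial genes or without the shifted count, and 15658 over the protein-coding total. No paired analysis was possible because each group holds 1 sample, and for the same reason no replicate could be left out. Depth limits genes under about 10 reads, such as Pitx3, Gucy2c and Drd3.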

Other observations

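Long noncoding and imprinted genes were counted as lists that share some members, Meg3 among them. The 14 long noncoding RNAs found took 8951 CPM in the 6-OHDA punch, of which Meg3 held 53.7%, and Malat1 (280 TPM) and Neat1 (92.2 TPM) followed Meg3 (955 TPM) and Snhg11 (811 TPM). The 16 imprinted genes took 9919 CPM in the 6-OHDA punch and 10241 CPM in the 6-OHDA En2 punch, with Nnat at 587 TPM, Ndn at 523 TPM and Peg3 at 400 TPM, while H19 had 8 reads.

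Chromatin modifier genes were all measured, 28 of 28 with at least 10 reads and a median of 18.5 TPM, from Cbx5 at 126 TPM to Dnmt3b at 1.41 TPM. Neuropeptide and granule genes ran from Scg2 at 1187 TPM, Nnat at 587 TPM and Penk at 395 TPM to Tac2 with 3 reads. Among homeobox families all 7 Lhx genes had reads, led by Lhx1 at 9.81 TPM, and all 6 Irx genes had at least 10 reads, led by Irx3 at 4.58 TPM.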
